A study of Gallus gallus with 4 samples.

Results

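Endothelial surface and junction adhesion molecules were followed in the chick chorio-allantoic membrane (CAM) after stimulation with VEGF-A. The genes were chosen by name and are CDH5, PECAM1, CD34, ESAM, CLDN5, EMCN, VWF and MCAM, 8 of the 13008 genes named on the Affymetrix chicken array. Every probe set with 1 of these symbols was taken, 18 in all, and the brightest of a gene's probe sets, by the mean over the 4 arrays, stands for the gene. The VEGF-A group comprised 3 single CAMs of Gallus gallus embryos at day 14 of development, each under a plastic disc with 3 µg of human recombinant VEGF-A for 24 h. The control group was 1 pool of RNA from 3 normal CAMs of the same day, on a single array, so that the spread between control CAMs was not measured. VEGF-A tissue was cut out where new capillaries could be seen, so it was picked for its vessels. The sources differ on whether control CAMs carried a disc with solvent.

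The CAM is the breathing organ of the embryo, a connective tissue with a dense capillary bed between a chorionic and an allantoic epithelium. Endothelial cells line its vessels and hold to each other at adherens junctions, built on VE-cadherin (CDH5), and at tight junctions, where claudin 5 (CLDN5) seals the cleft. PECAM1 and ESAM are immunoglobulin proteins of the same contacts. CD34 and endomucin (EMCN) are sialomucins of the luminal surface, von Willebrand factor (VWF) is a secreted adhesion protein that endothelium stores in granules, and MCAM (CD146) is an immunoglobulin adhesion molecule also found on pericytes. These roles are known mostly from mammals. Several of the genes are not confined to endothelium, since in mammals PECAM1 is also found on leukocytes and platelets, VWF in megakaryocytes and CD34 on blood progenitors.

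The deposited values are linear signal intensities. The authors' scaling gave every array the same 2% trimmed mean. Their medians over chicken probe sets were 15.3, 17.2 and 15.7 in VEGF CAMs 1, 2 and 3 and 19.1 in the control pool. Genes had to exceed a mean signal of 11.1, its 40th percentile, which kept 10505 named genes, of which the median log2 ratio to the control pool was -0.07. Of the 8 adhesion genes, 7 passed this filter and EMCN did not. CDH5, PECAM1, CD34, ESAM, CLDN5 and VWF lay above it on every array, the control included. MCAM was just inside it with a mean signal of 16.5, and EMCN was outside with 3.91.

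CLDN5, CDH5, CD34 and PECAM1 were more than 2-fold higher in VEGF-A CAMs than in the control pool in 2 of the 3 comparisons, those of VEGF CAMs 1 and 3. VWF was above the control by less than 2-fold in all 3, and ESAM and MCAM had mean log2 ratios below 0. With 2 or more comparisons past 2-fold asked for, 4 of 7 genes were higher, 0 were lower and 3 were neither, where 5.37% of all genes past the filter were higher and 6.03% lower. The study picked the same 4 genes on these arrays, and their direction is therefore no independent evidence. All 4 exceeded the control in every VEGF-A CAM, as did VWF, making 5 of 7 genes, against 24.6% of all genes. No adhesion gene was more than 2-fold higher in all 3 CAMs, as 2.3% of all genes were. By limma, which is fitted here over all probe sets past the filter and has 2 residual degrees of freedom, 0 of 7 had an adjusted p under 0.05, and 0 of all 22616 probe sets did. CDH5 and CLDN5 had an unadjusted limma p under 0.05, which 3.98% of all genes had while being higher. With 3 arrays against 1, the smallest p of an exact permutation test is 0.25.

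**Figure D1:**
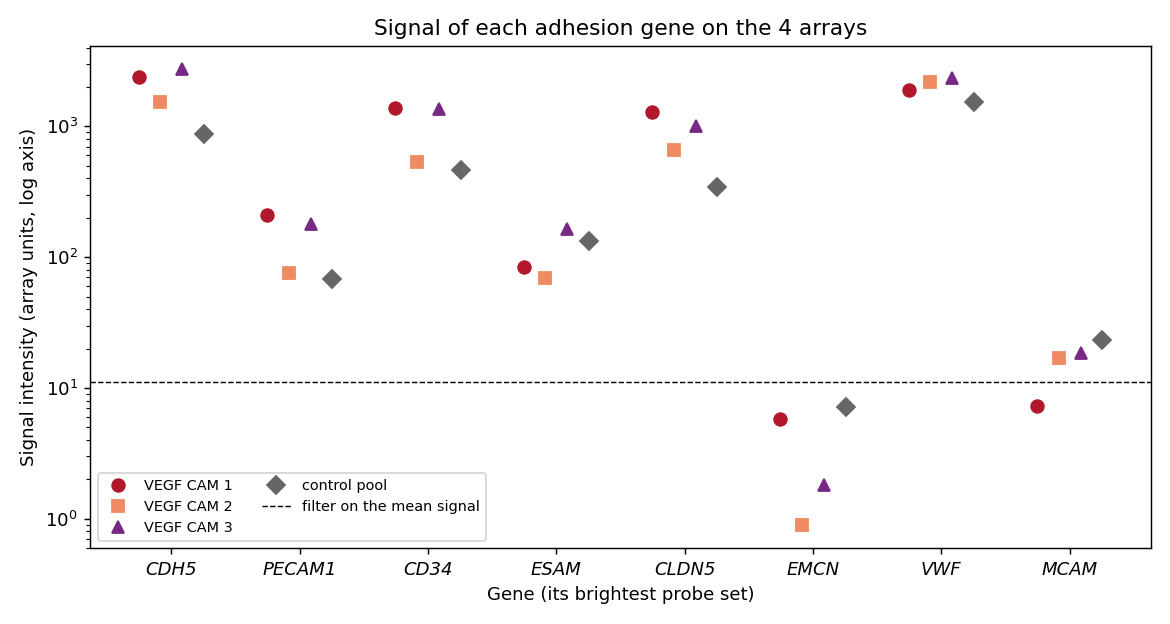
Signal intensity (log axis) of the brightest probe set of each adhesion gene in VEGF CAMs 1, 2 and 3 and in the control pool, 1 point per array, with the filter at a mean signal of 11.1 dashed. Of the VEGF-A CAMs, VEGF CAM 2 lies nearest to the control for CDH5, PECAM1, CD34 and CLDN5, and close to it for PECAM1 and CD34. All 4 points of EMCN lie below the dashed line.

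VE-cadherin, the cadherin of endothelial adherens junctions, had a signal of 2372, 1533 and 2757 in VEGF CAMs 1, 2 and 3 and of 875 in the control pool. All 3 VEGF-A CAMs lay above the control, with VEGF CAM 2 the lowest of them. The mean was 2221 ± 626 (SD, n = 3 CAMs), which is 2.54 ± 0.71 times the control signal. The mean log2 ratio of CDH5 was 1.30 (standard error 0.37, 95% interval 0.43 to 2.17, limma adjusted p = 0.69). Of the 10505 genes, 2.86% had a mean log2 ratio at least as high. Among the 962 genes whose mean signal was within 2-fold of that of CDH5, the share was 0.624%.

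Claudin 5, the tight junction protein, had 2 probe sets, both against the same transcript. At the brighter one CLDN5 had a signal of 1279, 658 and 1014 in VEGF CAMs 1, 2 and 3 and of 341 in the control pool. The other gave 413, 237 and 344 in the VEGF-A CAMs and 131 in the control pool. The probe sets placed the 4 arrays in the same order, with VEGF CAM 1 highest and the control lowest. Their mean log2 ratios were 1.47 (standard error 0.41, 95% interval 0.52 to 2.43) and 1.30 (standard error 0.40), each at a limma adjusted p = 0.69. CLDN5 had the highest mean log2 ratio of the adhesion genes, and 2.22% of all genes and 0.372% of the 1881 genes within 2-fold of its brightness reached it.

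CD34, the sialomucin of the luminal surface, had a signal of 1381, 537 and 1347 in VEGF CAMs 1, 2 and 3 and of 461 in the control pool. VEGF CAMs 1 and 3 were almost alike, while VEGF CAM 2 was close to the control, at 1.16 times its signal. The mean log2 ratio of CD34 was 1.12 with an SD of 0.78 over the CAMs (standard error 0.55, 95% interval -0.17 to 2.40, limma adjusted p = 0.85). A second CD34 probe set did not pass the filter and read 1.31, 6.24 and 8.43 in the VEGF-A CAMs and 1.38 in the control pool. These signals are so low that their ratios are not read as a change.

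PECAM1 (CD31) had 3 probe sets past the filter, which did not place the arrays alike. The brightest read 210.2, 76.1 and 179 in VEGF CAMs 1, 2 and 3 and 68.0 in the control pool, so that VEGF CAM 2 was only 1.12 times the control. The next read 185, 105 and 136 in the VEGF-A CAMs and 58.7 in the control pool, with VEGF CAM 2 clear of the control at 1.79 times. The last read 79.3, 108 and 39.4 in the VEGF-A CAMs and 54.7 in the control pool. There VEGF CAM 2 was the highest of the 4 arrays and VEGF CAM 3 the lowest. The mean log2 ratios were 1.06 (standard error 0.58, 95% interval -0.30 to 2.43, limma adjusted p = 0.85), 1.23 (standard error 0.41, limma adjusted p = 0.69) and 0.35 (standard error 0.57, limma adjusted p = 0.90). With the ratios of these probe sets averaged, PECAM1 had a mean log2 ratio of 0.88 and was no longer more than 2-fold higher in 2 comparisons.

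A further probe set has no symbol in the platform table and is annotated as PECAM1 by the study. It was added after the values had been seen, and the study lists only probe sets that it found increased. It read 2513, 1593 and 2570.1 in VEGF CAMs 1, 2 and 3 and 1161 in the control pool. The VEGF-A CAMs were again all above the control, and VEGF CAM 2 was the lowest of them. The mean log2 ratio at this PECAM1 probe set was 0.91 (standard error 0.35, limma adjusted p = 0.76).

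**Figure D2:**
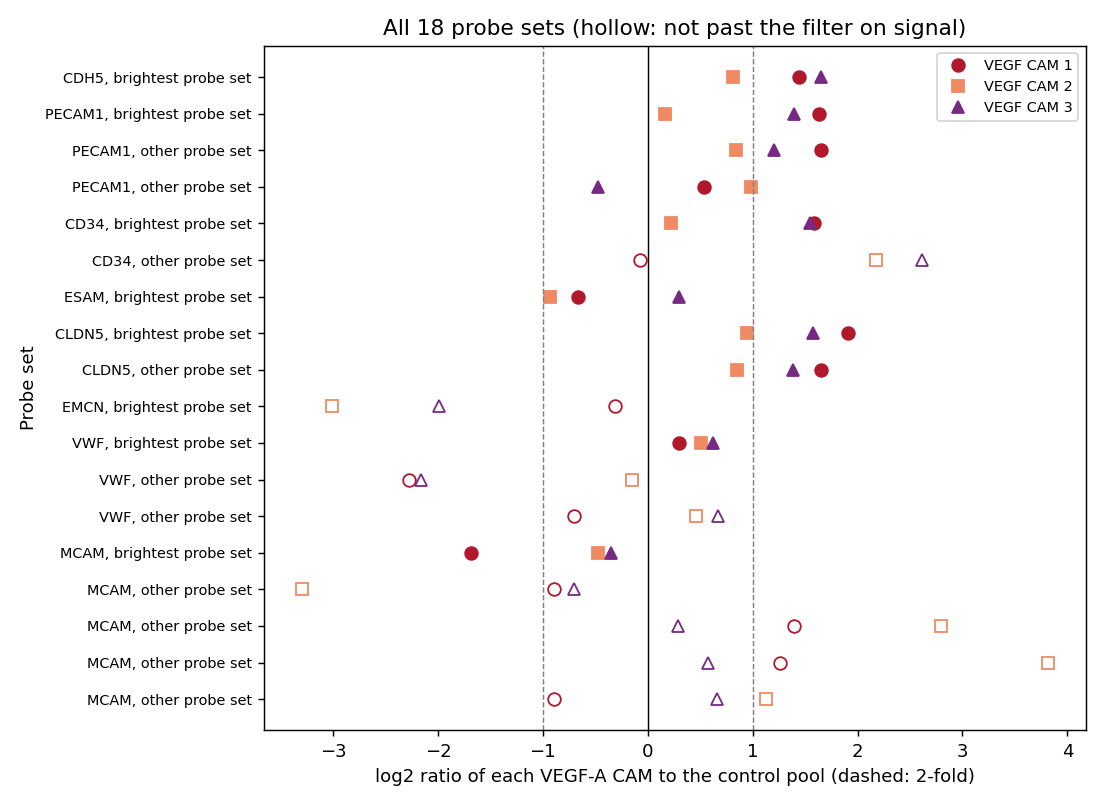
Log2 ratio to the control pool in every VEGF-A CAM for all 18 probe sets, 1 point per CAM, filled where the probe set passed the filter and hollow where it did not, with 2-fold dashed. The filled points of CDH5, CD34 and CLDN5 lie right of 0 in all 3 CAMs, those of PECAM1 differ by probe set, and the hollow points spread from -3.30 to 3.82.

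VWF, the stored adhesion protein, was the most even of the genes. It had a signal of 1883, 2176 and 2353 in VEGF CAMs 1, 2 and 3 and of 1528 in the control pool. All 3 VEGF-A CAMs lay above the control, and here VEGF CAM 1 was the nearest to it. The mean was 2137 ± 237 (SD, n = 3 CAMs), or 1.40 ± 0.16 times the control. The mean log2 ratio of VWF was 0.48 (standard error 0.27, 95% interval -0.16 to 1.12, limma adjusted p = 0.85), a value that 15.4% of all genes reached. Its other probe sets did not pass the filter, with signals from 1.34 to 13.2 in VEGF-A CAMs and of 14.6 and 2.17 in the control pool.

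ESAM, which joins endothelial cells by contact between its own copies, had a signal of 83.9, 69.7 and 163 in VEGF CAMs 1, 2 and 3 and of 133 in the control pool. The groups overlapped, since VEGF CAM 3 lay above the control and the other two below it. The mean log2 ratio of ESAM was -0.43 (standard error 0.51, 95% interval -1.64 to 0.78, limma adjusted p = 0.87), from 1 probe set. Of all genes, 75% had a ratio at least as high as ESAM.

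MCAM had 5 probe sets, of which only the brightest passed the filter. It read 7.29, 16.9 and 18.4 in VEGF CAMs 1, 2 and 3 and 23.4 in the control pool, so the control lay above all 3 VEGF-A CAMs, as it did for 29.8% of all genes. The mean log2 ratio of MCAM was -0.83 (standard error 0.84, 95% interval -2.81 to 1.14, limma adjusted p = 0.87). Of the dim probe sets of MCAM, 3 had a mean log2 ratio above 0 and 1 below it. EMCN, at its only probe set, read 5.78, 0.889 and 1.81 in VEGF CAMs 1, 2 and 3 and 7.16 in the control pool. Each of the 8 probe sets that did not pass the filter had at least 1 array below a signal of 3.12, the 20th percentile of all signals. At such signals a change in EMCN was not detectable here, in either direction. The probe set that stands for MCAM had no array below 3.12, and its wide interval includes changes in either direction.

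**Figure D3:**
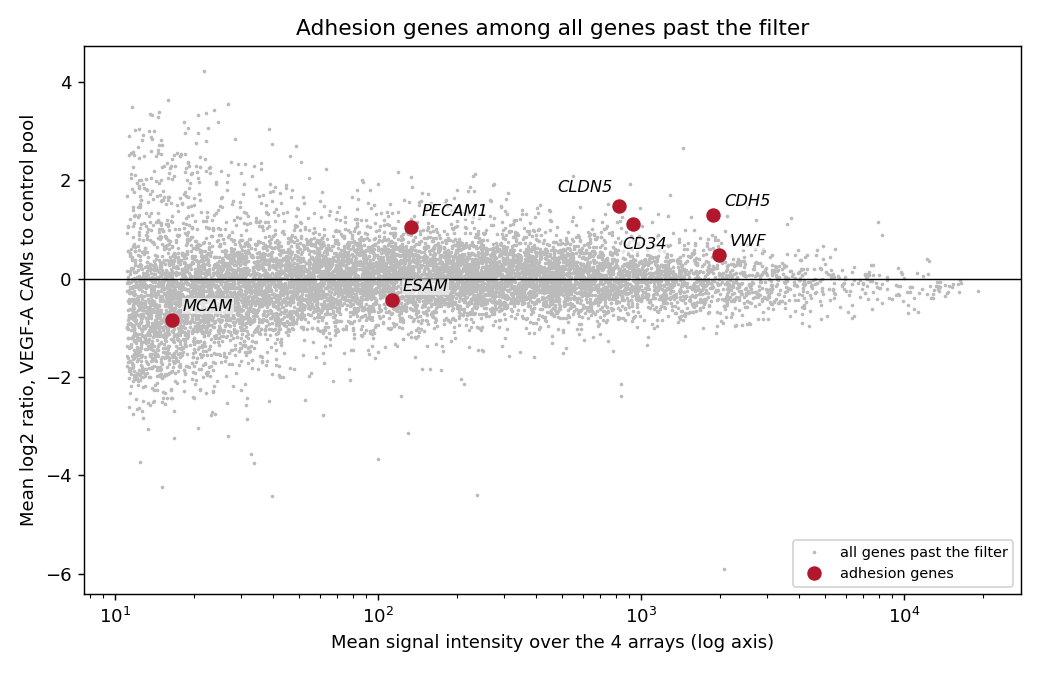
Mean log2 ratio of the 3 VEGF-A CAMs to the control pool against mean signal intensity (log axis) for all 10505 genes past the filter (grey) and the 7 adhesion genes past it (red, 1 point per gene). CLDN5, CDH5 and CD34 lie at the upper edge of the genes of like brightness, and MCAM lies among dim genes, whose ratios spread widely.

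The VEGF-A CAMs differed among themselves, in a way that does not involve the control array. PECAM1 was higher in VEGF CAM 1 than in VEGF CAM 2 by 1.47 on the log2 scale at its brightest probe set, CD34 by 1.36, CLDN5 by 0.96 and CDH5 by 0.63. The difference of VEGF CAM 3 from VEGF CAM 2 was 1.23 for PECAM1, 1.33 for CD34, 0.63 for CLDN5 and 0.85 for CDH5. VEGF CAM 1 exceeded VEGF CAM 2 by at least as much as for PECAM1 in 4.88% of all genes. For CD34 this share was 5.45%, for CLDN5 9.31% and for CDH5 16.9%. VEGF CAM 3 exceeded VEGF CAM 2 by at least as much in 6.28% of all genes for PECAM1, 5.6% for CD34, 16.6% for CLDN5 and 11% for CDH5. These shares count 1 direction only and leave out genes for which VEGF CAM 2 was higher by as much. VEGF CAM 2 was the lowest of the VEGF-A CAMs for 5 of the 7 adhesion genes, against 37.7% of all genes. The exceptions were VWF and MCAM. In VEGF CAM 1 and in VEGF CAM 3, 4 of the 7 genes were more than 2-fold above the control (6.84% and 6.04% of all genes), and in VEGF CAM 2 none of the 7 was (6.76% of all genes). The median log2 ratio of the 7 genes was 1.44, 0.22 and 1.39 in VEGF CAMs 1, 2 and 3 and 1.06 for the mean of the CAMs, against -0.05, -0.04, -0.03 and -0.07 over all genes.

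VE-cadherin and claudin 5 had higher ratios to the control than VWF in every VEGF-A CAM. The log2 ratio of CDH5 exceeded that of VWF by 1.14, 0.30 and 1.03 in VEGF CAMs 1, 2 and 3, and that of CLDN5 exceeded it by 1.60, 0.44 and 0.95. These differences between genes of 1 array do not depend on how the arrays were scaled to each other. For CD34 the difference from VWF was 1.28 in VEGF CAM 1 and 0.92 in VEGF CAM 3 and turned to -0.29 in VEGF CAM 2, and for PECAM1 it was 1.33 and 0.77 but -0.35. ESAM lay below CLDN5 by 2.57, 1.88 and 1.27 in VEGF CAMs 1, 2 and 3. All these values share the control array, and none was tested as a difference between genes.

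The next list held proteins that VE-cadherin and claudin 5 bind inside the cell, and other proteins of cell contacts. Of 28 measured junction partners, 2 were more than 2-fold higher, 2 more than 2-fold lower and 24 neither, with a median log2 ratio of 0.02. With 5.37% of all genes higher and 6.03% lower, these counts are near the background, and the 4 genes are given as values only. TJP1 (ZO-1), the scaffold of tight junctions, was 2.37, 2.47 and 0.93 above the control on the log2 scale in VEGF CAMs 1, 2 and 3, where the control was dim at 11.4. PTPRB (VE-PTP), the phosphatase that binds VE-cadherin, read 39.7, 27.6 and 24.2 in the VEGF-A CAMs and 9.57 in the control pool. The control signal of PTPRB lies below the filter, which it passed only through the VEGF-A arrays, so its ratio is not read as a change. NECTIN3, an adhesion protein of adherens junctions, had -1.21, -0.76 and -1.14, with 359 as its control signal, and the dim CD99L2 had -0.95, -1.17 and -1.29. None of the 28 passed limma over all probe sets, and unadjusted 2 were higher and 1 lower at a p under 0.05. Of all genes, 3.98% were higher at such a limma p. The share of all genes lower at such a limma p was not computed, so the lower count has no background beside it. The catenins that carry cadherins were named for their binding to VE-cadherin, after their values were seen. CTNNA1 (alpha-catenin) had a signal of 267, 330 and 165 in VEGF CAMs 1, 2 and 3 and of 146 in the control pool, with a mean log2 ratio of 0.74 (limma adjusted p = 0.85). CTNNB1 (beta-catenin) had a signal of 7838, 9761 and 9726 in VEGF CAMs 1, 2 and 3 and of 9909 in the control pool, with a mean log2 ratio of -0.13. CTNND1 (p120-catenin) had a mean log2 ratio of -0.37 and JUP (plakoglobin) of 0.04. Epithelium also expresses these catenins and TJP1.

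A further list held mostly other surface proteins of endothelium, among them the receptors of VEGF-A and of angiopoietins. It also held LAMA4, a laminin chain, which is named only for this reason and was among the genes called higher. Of 19 measured, 10 were more than 2-fold higher and 0 lower (5.37% and 6.03% of all genes), with a median log2 ratio of 0.84. Most of them are among the genes that the study picked as increased on these arrays, so their count is no independent evidence. One of the 10, STAB1, had a control signal of 10.2, below the filter, and passed only through the VEGF-A arrays. By limma 0 passed when adjusted, and 8 were higher at an unadjusted p under 0.05, as were 3.98% of all genes. The 4 with the largest change were receptors, namely TEK with 2.03, 2.06 and 2.30 in VEGF CAMs 1, 2 and 3, TIE1 with 1.98, 1.44 and 2.15, FLT1 with 1.63, 1.99 and 1.22, and KDR with 1.90, 0.94 and 1.97. In VEGF CAM 2, TEK, TIE1 and FLT1 were thus more than 2-fold above the control, which KDR and the adhesion genes were not. In that CAM 6.76% of all genes were. These 4 receptors were picked for the largest change and do not stand for their list. The median of the 19 genes in VEGF CAM 2 was 0.65, beside 0.22 for the adhesion genes, and the difference between the lists was not tested. CLDN5 with 0.95 and CDH5 with 0.81 lay above that median of 0.65.

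**Figure D4:**
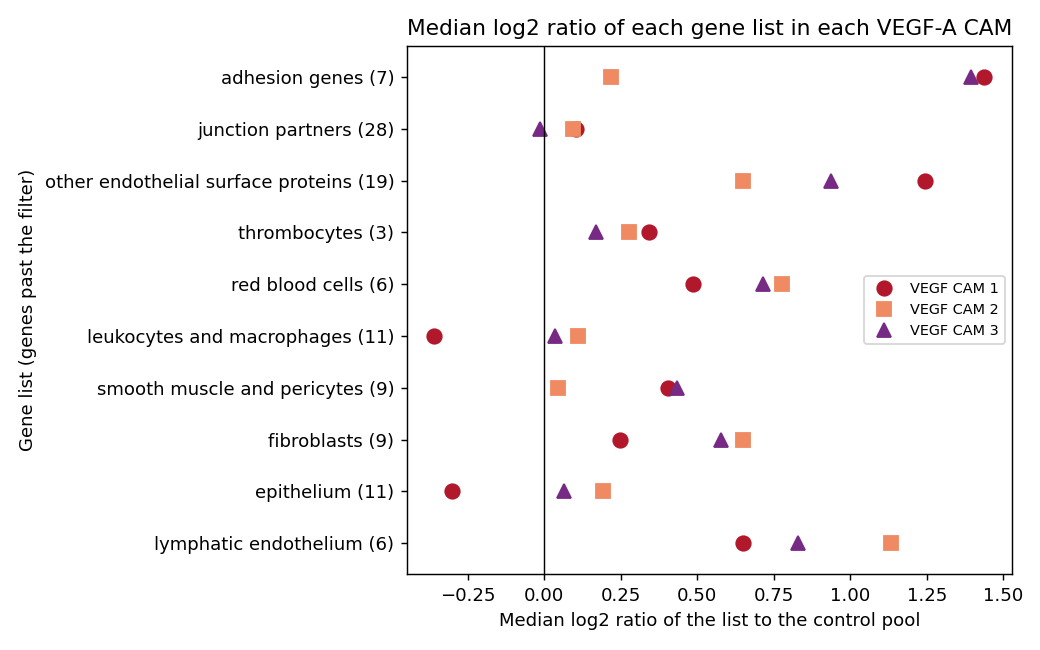
Median log2 ratio to the control pool of the adhesion genes and of 9 other gene lists in VEGF CAMs 1, 2 and 3, 1 point per CAM, with the number of genes past the filter in brackets. The adhesion genes stand at 1.44, 0.22 and 1.39 in VEGF CAMs 1, 2 and 3, and junction partners stand near 0 in all 3.

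Markers of other cells that can hold some of these transcripts also differed between the arrays. The counts below stand beside 5.37% of all genes past the filter that were more than 2-fold higher and 6.03% lower. Of 6 lymphatic genes, 3 were more than 2-fold higher and 0 lower, and their summed signal was 2480, 2959 and 2705 in VEGF CAMs 1, 2 and 3 and 1268 in the control pool. Among them FLT4, the receptor of VEGF-C, had log2 ratios of 2.26, 2.02 and 1.96, and PROX1, the transcription factor of lymphatic identity, of 1.60, 1.10 and 1.25. The lymphatic genes did not all move alike. LYVE1 and PDPN are named as exceptions to the rule of largest change, after their values were seen. LYVE1 had 0.31, 0.37 and 0.30, and PDPN lay below the control with -0.71, -0.74 and -0.28. PDPN was dim, with 34.0 as its control signal, and its mean log2 ratio of -0.58 had a standard error of 0.51. Of 9 markers of smooth muscle and pericytes, 0 were higher or lower, with sums of 3317, 2775 and 3832 in the VEGF-A CAMs and 2757 in the control pool. Only 3 of 13 thrombocyte markers were measured, with sums of 1032, 1025 and 938 in the VEGF-A CAMs and 841 in the control pool, and none was higher or lower. Of 6 red blood cell genes, 3 were higher and 1 lower. One of the 3, HBZ, passed the filter only through the VEGF-A arrays, over a control signal of 3.78. Red blood cell sums were 23799, 38061 and 31578 in the VEGF-A CAMs and 27114 in the control pool. Of 11 leukocyte markers 0 were higher or lower, with sums of 2541, 3696 and 4846 in the VEGF-A CAMs and 4123 in the control pool. Of 11 epithelial markers 0 were higher or lower, with sums of 29225, 45023 and 36682 in the VEGF-A CAMs and 40239 in the control pool. VEGF CAM 2, the lowest for most adhesion genes, had the highest epithelial sum. It also had the highest sums of the lymphatic, red blood cell and fibroblast genes. A sum follows its brightest genes, and the genes of these lists did not all rank the CAMs alike. NRP2 read 453, 865 and 513 in VEGF CAMs 1, 2 and 3, while FLT4 and PROX1 were highest in VEGF CAM 1. HBA1, named here as the brightest red blood cell gene, was highest in VEGF CAM 2, and HBE and SLC4A1 were lowest there. Of 9 fibroblast genes 2 were higher and 1 lower, with sums of 34562, 49829 and 42778 in the VEGF-A CAMs and 26190 in the control pool. The lower one, PDGFRA, read 7.53, 18.4 and 5.44 in VEGF CAMs 1, 2 and 3 and 21.9 in the control pool. PDGFRA passed the filter only through the control array, so its ratio is not read as a change. The fibroblast sums follow bright collagen genes such as COL1A2, with 7726, 12206 and 7906 in the VEGF-A CAMs and 4076 in the control pool. FBN1 went the other way, with 35.4, 71.8 and 58.3 in the VEGF-A CAMs and 109 in the control pool. POSTN, named as an exception after its values were seen, had a mean log2 ratio of -0.23. The ratio of 3' to 5' signal of actin, which reflects RNA quality, was 15.5, 19.7 and 22.9 in VEGF CAMs 1, 2 and 3 and 24.2 in the control pool. That of GAPDH was 43.2, 58.0 and 66.9 in the VEGF-A CAMs and 67.0 in the control pool. For EF1a it was 5.74, 6.65 and 7.38 in the VEGF-A CAMs and 8.74 in the control pool. All of these ratios were thus highest in the control pool, for GAPDH by very little over VEGF CAM 3. On every array the 3' signal of these genes was many times the 5' signal, with 5.74 the lowest ratio. Whether this bears on dim or disagreeing probe sets was not tested. The part of these cells and of RNA quality in the adhesion gene values was not tested. In whole tissue, more endothelial cells and more RNA per endothelial cell cannot be told apart.

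The genes whose log2 ratios lay nearest to the medians of the adhesion genes were sought among 6888 others with a control signal of at least 50, over the 3 VEGF-A CAMs. They were KLHL18, SOX18, SRGAP1, ELK3, RFKL and RAPGEF3, at Euclidean distances from 0.12 to 0.30 on the log2 scale. SOX18, an endothelial transcription factor, had a signal of 558, 233 and 491 in VEGF CAMs 1, 2 and 3 and of 211 in the control pool. ELK3, an ETS transcription factor, had 1940.0, 1090 and 2035 in the VEGF-A CAMs and 815 in the control pool. RAPGEF3 (EPAC1), which activates the small GTPase Rap1, had 201, 103 and 189 in the VEGF-A CAMs and 84.1 in the control pool. KLHL18, the nearest in pattern, had 361, 152 and 382 in VEGF CAMs 1, 2 and 3 and 138 in the control pool. SRGAP1 had 393, 156 and 323 in the VEGF-A CAMs and 143 in the control pool. RFKL had 381, 147 and 428 in the VEGF-A CAMs and 136 in the control pool. That VEGF CAM 2 was nearest to the control in these genes was fixed by the search, so it is no finding about them. PECAM1 and CD34 themselves lay at distances of 0.20 and 0.21, which is partly built in, since the medians are values of single adhesion genes. CDH5 lay at 0.65 and CLDN5 at 0.88, since CDH5 and CLDN5 kept a larger part of their ratio in VEGF CAM 2. VWF, ESAM and MCAM lay farther from the medians, at 1.40, 2.64 and 3.64.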

How the data were processed

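RNA of chick CAMs was labelled with biotin and hybridised to Affymetrix chicken arrays. The values deposited by the authors are linear intensities, 1 for a probe set on an array, and the submitters' processing notes name GCOS 1.2. Detection calls were not used here, and 0 value columns were left out. Of 38535 probe sets, 37693 are chicken ones, and 27166 of these have 1 symbol in the platform table. All 8 adhesion genes matched RefSeq by gene ID. The values carry no genome build, so no coordinates are given.

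Log2 ratios to the control pool were computed for every VEGF-A CAM in R 4.3.3, and limma 3.58.1 was run with its variance trend on (5.23 prior degrees of freedom) and Benjamini-Hochberg adjustment over all 22616 probe sets past the filter. The single control array is assumed to vary as the VEGF-A arrays do. The functions were tested on simulated data. Figures were drawn in Python 3.11.15 with matplotlib 3.10.9. The adhesion genes and lists were chosen with earlier results of these data known. The genes named are all 8, up to 4 of each other list with the largest change, and the 6 nearest in pattern, and each exception is marked as such. The separate CAMs are single embryos' membranes, and their number limits the precision.

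Alternatives tried were a floor at the 20th percentile, an offset of 32, quantile normalization, median centring, and no filter or one at the 60th percentile. Further ones were the mean of a gene's probe sets past the filter, and limma without a trend. Each VEGF-A CAM was also left out in turn, and the PECAM1 probe set was added.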

Additional observations from a re-analysis of the deposited data

How the results depend on the processing

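The count of 4 adhesion genes more than 2-fold higher did not change under quantile normalization or centring on the median. Nor did it change with the floor, the offset of 32 or either filter setting. It was 3 with the mean of a gene's probe sets past the filter, where PECAM1 was lost. With the added PECAM1 probe set the count stayed at 4. That was fixed in advance, since the study lists only probe sets that it found increased on these arrays. Over all genes the share more than 2-fold higher moved with the setting. It was 5.37% in the main setting, with the floor and with the added PECAM1 probe set. Quantile normalization gave 6.48%, centring 8.96% and the offset 1.34%. It was 8.16% without a filter, 4.03% with the filter at the 60th percentile and 5.21% with the mean of a gene's probe sets past the filter. Where 1 VEGF-A CAM was left out and more than 2-fold was asked for in both others, the count of adhesion genes ranged from 0 to 4. It was 0 when VEGF CAM 1 or VEGF CAM 3 was dropped, since VEGF CAM 2 then has to pass, and 4 without VEGF CAM 2. The share of all genes was 3.01% without VEGF CAM 1, 3.26% without VEGF CAM 3 and 3.71% without VEGF CAM 2. The count of adhesion genes more than 2-fold lower was 0 in all settings but without a filter, where the dim EMCN made it 1. Without a filter 10.7% of all genes were more than 2-fold lower, against 6.03% in the main setting. The median log2 ratio of the adhesion genes lay between 0.77 without a filter and 1.32 after centring, which raised the median of all genes by 0.25, and was 0.78 without VEGF CAM 1, 0.90 without VEGF CAM 3 and 1.51 without VEGF CAM 2. Every gene kept the sign of its mean log2 ratio in each setting that gave it a value. Averaging took only probe sets past the filter, so it could not change CDH5, CD34, ESAM, VWF or MCAM. Dim probe sets of VWF and MCAM, left out there, had mean log2 ratios of either sign. By limma no adhesion gene passed in any setting with a fit, while other genes did when VEGF CAM 1 was left out. Each of these fits rests on a single control array. Counts at an unadjusted p are not given by setting, since the share of all genes was computed in the main setting only. No paired analysis was possible because the control is a single pooled array.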
